A study of Mus musculus with 6 samples.

Results

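The 10 genes described here encode receptors for cytokines that drive the growth and maturation of blood progenitors. They were chosen by name, as the receptors for the 4 cytokines added to the culture (IL-3, IL-6, stem cell factor and Flt3 ligand) and for the colony-stimulating factors M-CSF, GM-CSF and G-CSF. All 10 were among the 12161 genes of the deposited table. Messenger RNA had been sequenced from LSK cells of C57BL/6 mice, the lineage-negative, Sca1-positive, Kit-positive bone marrow cells that hold the stem cells and early progenitors. The 6 libraries comprised 3 from cells carrying the retrovirus MIG-Hhex, which adds the homeobox gene Hhex, and 3 from cells carrying the empty GFP vector MIG. The genotype label reads Hhex for the MIG-Hhex libraries and wild-type for the MIG libraries, and no other allele is given for either group. Both groups grew for 2 days after transduction in 10 ng/mL each of IL-3 and IL-6 and 50 ng/mL each of stem cell factor and Flt3 ligand, and were sorted for GFP before RNA extraction, so the cells had met every culture cytokine before they were measured. Hhex came from the retrovirus in whichever cells it had entered, and the labels write the first and last cytokine as mL-3 and mFlt-3, read here as mouse IL-3 and Flt3 ligand. The sources used here give neither the age nor the sex of the mice. The replicates are named WT3, WT691 and WT703 in both groups, and the labels place both WT3 libraries on flow cell C3RJFACXX and the other 4 on flow cell C5LWPANXX.

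Cytokine receptors of this kind fall into a pair of families. Kit, Flt3 and Csf1r are receptor tyrosine kinases of class III, each of which binds its ligand as a homodimer and phosphorylates itself. The others are type I cytokine receptors without a kinase of their own, most of which pair a ligand-specific chain with a shared signalling chain and work through JAK kinases and STAT factors. Il3ra and Csf2ra are the specific alpha chains for IL-3 and GM-CSF, and Csf2rb is the common beta chain that carries the signal for both and for IL-5. The mouse has a further beta chain, Csf2rb2, which serves IL-3 alone. Il6ra binds IL-6, Il6st (gp130) carries its signal, and Csf3r binds G-CSF as a homodimer.

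In GRCm38 Kit lies on chromosome 5 from 75574987 to 75656722 and Flt3 on chromosome 5 from 147330741 to 147400489, Csf3r on chromosome 4 from 126023441 to 126044975, Il6ra on chromosome 3 from 89869324 to 89913196 and Il6st on chromosome 13 from 112464070 to 112506860. Il3ra lies on chromosome 14 from 14345912 to 14355493 and Csf2ra on chromosome 19 from 61217191 to 61228461. RefSeq places an uncharacterized long non-coding RNA or a microRNA over Flt3, Il6ra, Csf1r, Csf3r, Csf2rb and Csf2rb2, and the sources used here do not say whether counting used the strand.

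The beta chains need care, because their genes are neighbouring duplicates on opposite strands. Csf2rb2 lies on chromosome 15 from 78282507 to 78305721 on the minus strand and Csf2rb from 78325800 to 78351001 on the plus strand, with 20.1 kb between them. Over 2628 aligned bases of coding sequence, 95.2% were identical (GENCODE transcripts, GRCm38). Of the 2585 windows of 50 bases in the Csf2rb2 coding sequence, 26.6% also occur without a mismatch in Csf2rb, and of the 100-base windows 11.3%. A read from such a window cannot be assigned to a single gene, and the sources used here do not say how the authors counted reads of that kind. Single-read and paired libraries of 50 or 100 bases are both named in the labels. The 60 bases where the 2 genes differ most, with the 13 mismatched bases in capitals, show what separates them. They run from base 304 to 363 of the Csf2rb and from base 307 to 366 of the Csf2rb2 coding sequence.
Csf2rb: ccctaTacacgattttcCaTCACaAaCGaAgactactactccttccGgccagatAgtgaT
Csf2rb2: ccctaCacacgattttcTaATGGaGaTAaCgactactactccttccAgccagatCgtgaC
The longest run without a mismatch spans 242 bases, and its opening stretch, at bases 2083 to 2202 in both coding sequences, shows where the genes cannot be told apart.
Csf2rb and Csf2rb2: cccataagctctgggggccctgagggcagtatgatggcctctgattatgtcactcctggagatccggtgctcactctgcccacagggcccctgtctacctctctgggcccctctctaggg

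**Figure D1:**
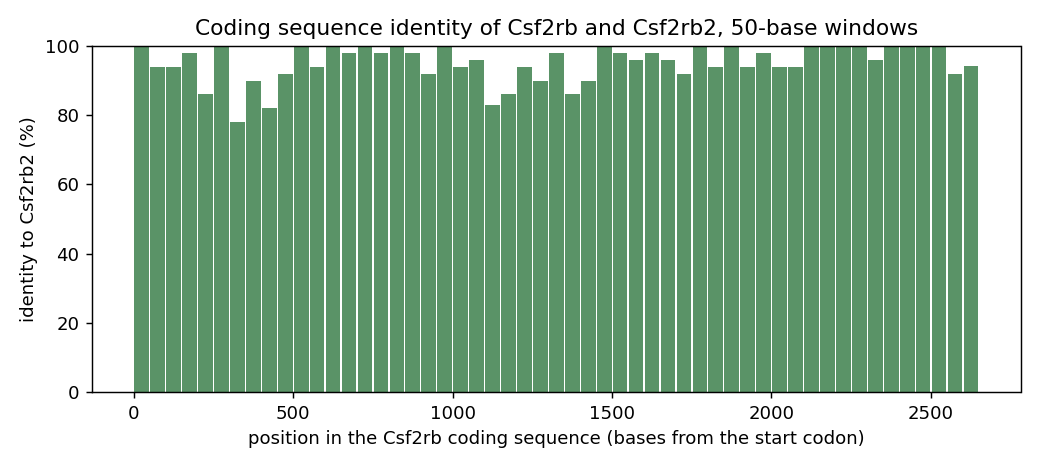
Identity (%) of the Csf2rb coding sequence to that of Csf2rb2 in consecutive windows of 50 bases, plotted by position from the start codon. Identity was lowest, at 78% of the aligned bases, in the window from base 301 to 350, and 18 windows were identical throughout.

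Promoter sequences were at hand for 8 of the 10 genes (RefSeq, GRCm38.p6), and those of Csf2rb2, Il6ra and Csf2ra are shown because the first and second belong to genes that rose and the third to an alpha chain with almost the same value in both groups. Each run holds the 250 bases before the start given with the promoter sequence, on the strand of the gene. That start is not always the end of the gene span given above. Capitals mark GAGGAA on either strand, the core of sites bound by PU.1, the myeloid ETS factor encoded by Spi1. The windows are chr15:78305722-78305971 (minus strand) for Csf2rb2, chr3:89913197-89913446 (minus strand) for Il6ra and chr19:61228419-61228668 (minus strand) for Csf2ra.
Csf2rb2: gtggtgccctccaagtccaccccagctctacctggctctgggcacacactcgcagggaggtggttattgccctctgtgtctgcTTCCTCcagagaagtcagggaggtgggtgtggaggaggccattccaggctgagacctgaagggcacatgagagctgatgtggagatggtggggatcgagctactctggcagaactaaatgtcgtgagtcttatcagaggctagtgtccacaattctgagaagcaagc
Il6ra: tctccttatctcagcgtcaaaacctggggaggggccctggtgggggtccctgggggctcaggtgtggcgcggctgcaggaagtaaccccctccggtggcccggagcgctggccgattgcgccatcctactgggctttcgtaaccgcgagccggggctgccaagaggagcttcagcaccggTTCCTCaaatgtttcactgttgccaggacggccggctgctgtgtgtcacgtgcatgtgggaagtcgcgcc
Csf2ra: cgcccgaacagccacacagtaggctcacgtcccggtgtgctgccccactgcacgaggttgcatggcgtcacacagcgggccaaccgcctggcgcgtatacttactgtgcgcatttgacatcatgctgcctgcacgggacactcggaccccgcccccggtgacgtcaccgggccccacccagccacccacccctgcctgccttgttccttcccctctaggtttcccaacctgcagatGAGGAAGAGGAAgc
GAGGAA was present in 5 of the 8 promoters, those of Il6ra, Csf3r, Kit, Csf2rb2 and Csf2ra, against 23.3% of all 32851 promoter windows of the same length. The Csf2ra window holds adjoining copies, and these lie inside the gene span given above. The windows of Csf3r and Il3ra lie wholly inside the spans of their genes, so the GAGGAA of Csf3r does too. ATTAA, a core of homeodomain sites such as those of Hhex, was in 0 of the 8, against 24.9% of all windows. The motif was thus found in promoters of genes that rose and of genes that did not, and the absence of ATTAA says only that these letters are not in these 250 bases.

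The Hhex gene itself had log2 values of 7.61 to 9.34 in MIG-Hhex libraries and 5.05 to 5.18 in MIG libraries (11.7-fold higher, log2 fold change 3.55 with SE 0.32, limma adjusted p = 0.00189). The genes that define the sort were present: Ly6a, which encodes Sca1, averaged 5.22 in MIG-Hhex and 5.17 in MIG libraries (limma adjusted p = 0.833). Its level differed by replicate. In WT3, WT691 and WT703 it was 3.55, 6.21 and 5.89 with MIG-Hhex, and 3.18, 6.25 and 6.08 with MIG. The WT3 libraries were thus far the lowest with either vector. Genes of maturing granulocytes were abundant as well, with Elane, a primary granule protease, at 9.97 in MIG-Hhex and 10.11 in MIG libraries. In bulk RNA fewer cells of a type and less RNA per cell cannot be told apart. The values behave as log2 expression per kilobase of gene: multiplied by gene length, their linear values summed to nearly the same total in the 6 libraries, as values per kilobase and per total reads would. Libraries set to a common distribution before division by length would give such totals as well. Ctsg, for example, had the same value of 10.96 in both WT3 libraries. Which scaling was used was not tested. Levels of different genes are compared on that scale, and the read depth is unknown.

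Of the 10 receptor genes 3 rose in MIG-Hhex cells and 0 fell, where 9.44% of all genes measured were called higher and 8.52% lower (limma, flow cell as a term, Benjamini-Hochberg adjusted p under 0.05 over all genes). The 3 were the IL-3 beta chain Csf2rb2, the IL-6 receptor Il6ra and the common beta chain Csf2rb, and the median of the 10 log2 fold changes was 0.29, against −0.02 for all genes. In 6 of the 10 genes each of the 3 pairs was higher with MIG-Hhex, a pattern that 27.5% of all genes showed, and in 2, Kit and Flt3, each pair was lower, as in 32.3% of all genes. Libraries with the same replicate name deviated together from their group means, which a flow cell shift would give as well. With the replicate name as a block 5 of the 10 were higher and 1 lower, against 12.4% and 12.1% of all genes (limma). The genes added by the block were Csf1r and Csf3r, higher, and Flt3, lower. With neither a flow cell nor a replicate term, 0 of the 10 passed (limma adjusted p from 0.182 to 0.988).

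**Figure D2:**
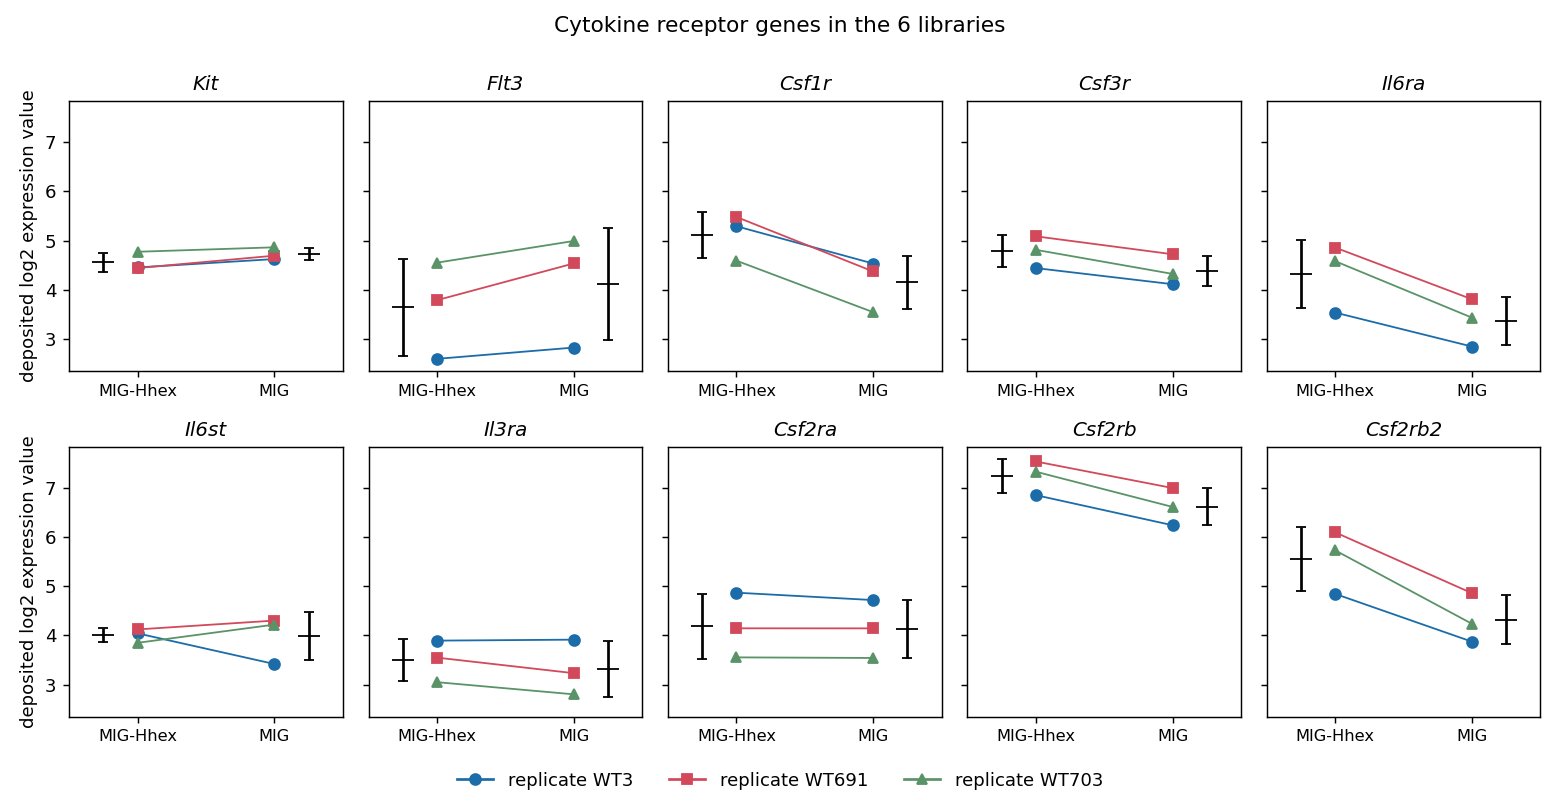
Deposited log2 expression values of the 10 receptor genes in each library, MIG-Hhex on the left and MIG on the right of each panel. Lines join libraries with the same replicate name and black bars give the mean and SD of 3 libraries. Csf2rb2, Il6ra, Csf2rb, Csf1r and Csf3r lay higher with MIG-Hhex in all 3 pairs, while the pairs of Csf2ra ran almost level.

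Csf2rb2, the beta chain that serves IL-3 in the mouse, had log2 values of 4.84, 6.09 and 5.72 in the MIG-Hhex libraries of replicates WT3, WT691 and WT703, against 3.87, 4.85 and 4.23 in the MIG libraries. The groups overlapped in 1 place, where the MIG-Hhex library of WT3 lay just below the MIG library of WT691, and within each pair the MIG-Hhex library was the higher. The rise was 2.35-fold (log2 fold change 1.23, SE 0.18, limma adjusted p = 0.0085). Leaving out single libraries or replicates in 9 runs kept the call (limma adjusted p up to 0.0349). The 3 of these runs that drop a library of WT3 give the same estimate as flow cell C5LWPANXX alone (log2 fold change 1.36, limma adjusted p = 0.0305), in which 10.0% of all genes were called, and are not separate checks.

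The common beta chain Csf2rb was the most abundant of the 10 genes in both groups. Its log2 values were 6.85, 7.53 and 7.32 with MIG-Hhex, against 6.23, 6.99 and 6.61 with MIG, in the same order of replicates. The ranges overlapped, but the 3 pairs differed by 0.61, 0.54 and 0.72, all in the same direction. The rise was 1.54-fold (log2 fold change 0.62 with SE 0.11, limma adjusted p = 0.0137). The call was lost within flow cell C5LWPANXX alone (limma adjusted p = 0.0636) and in the runs without a library of WT3, which share its estimate (0.0650 without MIG, 0.0647 without MIG-Hhex). It was also lost without the MIG-Hhex library of WT691 (0.0598) and with neither a flow cell nor a replicate term (limma adjusted p = 0.306). The log2 fold change stayed between 0.51 and 0.73 in all alternatives.

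The gap between the beta chains was also compared. Csf2rb exceeded Csf2rb2 by 2.01, 1.44 and 1.60 log2 units in the MIG-Hhex libraries and by 2.36, 2.14 and 2.37 in the MIG libraries. All MIG-Hhex gaps were narrower than all MIG gaps, by 0.61 on average (exact two-sided permutation test over the 6 libraries, p = 0.1, the smallest that 3 against 3 can give; adjusted over 6 receptor pairs, p = 0.5). Because the handling of reads shared by the 2 genes is unknown, the separate sizes of their rises are uncertain.

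The alpha chains of the same receptors did not pass the test. Il3ra, the IL-3 binding chain, had log2 values of 3.89, 3.55 and 3.05 with MIG-Hhex, against 3.91, 3.23 and 2.80 with MIG. Its fold change of 0.18 (SE 0.17, 95% interval −0.23 to 0.59) did not pass (limma adjusted p = 0.496), and with a GC trend removed the estimate was −0.06. Csf2ra, the GM-CSF binding chain, stood at 4.87, 4.14 and 3.55 with MIG-Hhex, against 4.72, 4.14 and 3.54 with MIG. The libraries of WT691 differed by 0.001 and those of WT703 by 0.01, whereas WT3 and WT703 were more than a log2 unit apart with either vector. The fitted difference of 0.05 (95% interval −0.42 to 0.53, limma adjusted p = 0.873) was not past the threshold, and it turned to −0.17 with a GC trend removed and to −0.10 without the MIG-Hhex library of WT691 or the MIG library of WT703. Relative to Csf2ra, Csf2rb was 1.98, 3.39 and 3.77 log2 units higher in MIG-Hhex libraries and 1.52, 2.85 and 3.07 higher in MIG libraries, a mean shift of 0.57. The shift was 0.46, 0.54 and 0.70 within the pairs, in 3 of 3 upwards, while the exact permutation over unpaired libraries gave p = 0.5. Relative to Il3ra, Csf2rb2 averaged 2.06 ± 0.96 higher with MIG-Hhex and 1.004 ± 0.91 higher with MIG (SD, n = 3 each, exact permutation over unpaired libraries p = 0.3), and within the pairs the shift was 0.99, 0.92 and 1.24. An exact test over 3 pairs cannot go below p = 0.25.

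Of the IL-6 receptor chains the binding chain rose, and the signalling chain did not pass the test. Il6ra had log2 values of 3.54, 4.86 and 4.58 with MIG-Hhex, against 2.85, 3.81 and 3.43 with MIG, and rose 1.95-fold (log2 fold change 0.96, SE 0.14, limma adjusted p = 0.00814). Each pair was higher with MIG-Hhex, although the MIG-Hhex library of WT3 lay below the MIG library of WT691, and all 9 left-out runs kept the call (limma adjusted p up to 0.033). Il6st stood at 4.04, 4.12 and 3.85 with MIG-Hhex, against 3.42, 4.30 and 4.22 with MIG. The pair of WT3 was higher with MIG-Hhex and the other pairs were lower, and the fold change of 0.02 did not pass (SE 0.19, limma adjusted p = 0.94). Within flow cell C5LWPANXX it was −0.27. In the MIG libraries Il6st exceeded Il6ra by 0.57, 0.49 and 0.78, whereas in the MIG-Hhex libraries of WT691 and WT703 it lay 0.74 and 0.73 below Il6ra and in that of WT3 0.50 above it. The mean difference between the chains was thus −0.32 ± 0.71 with MIG-Hhex and 0.62 ± 0.15 with MIG (SD, n = 3 each, exact permutation over unpaired libraries p = 0.2). Within the pairs of WT3, WT691 and WT703 the shift was −0.07, −1.23 and −1.52.

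The gene for the ligand itself fell. Il6 had log2 values of −2.07, −2.46 and −1.73 with MIG-Hhex, against 0.81, 0.67 and 0.67 with MIG, and no MIG-Hhex library came near a MIG library. It fell by 2.81 on the log2 scale (SE 0.27, 6.99-fold lower, limma adjusted p = 0.00228). Both groups lie low in the table, so the size of the fall may depend on any offset used before the log was taken. The medium contained IL-6 in either case. Of 8 listed ligands of the receptors 4 were analysed here, and of these 1, Il6, fell and 0 rose. Kitl, the gene of stem cell factor, averaged −5.21 ± 0.54 with MIG-Hhex and −2.66 ± 0.94 with MIG (SD, n = 3 each), and missed the threshold (limma adjusted p = 0.0558). Its MIG-Hhex values of −4.90, −4.90 and −5.84 are lower still than those of Il6, so its difference and SD may depend on any offset too. Flt3l averaged 2.53 with MIG-Hhex and 2.13 with MIG (limma adjusted p = 0.0663), and Csf1, the gene of M-CSF, averaged 0.40 with MIG-Hhex and 0.72 with MIG (limma adjusted p = 0.29).

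**Figure D3:**
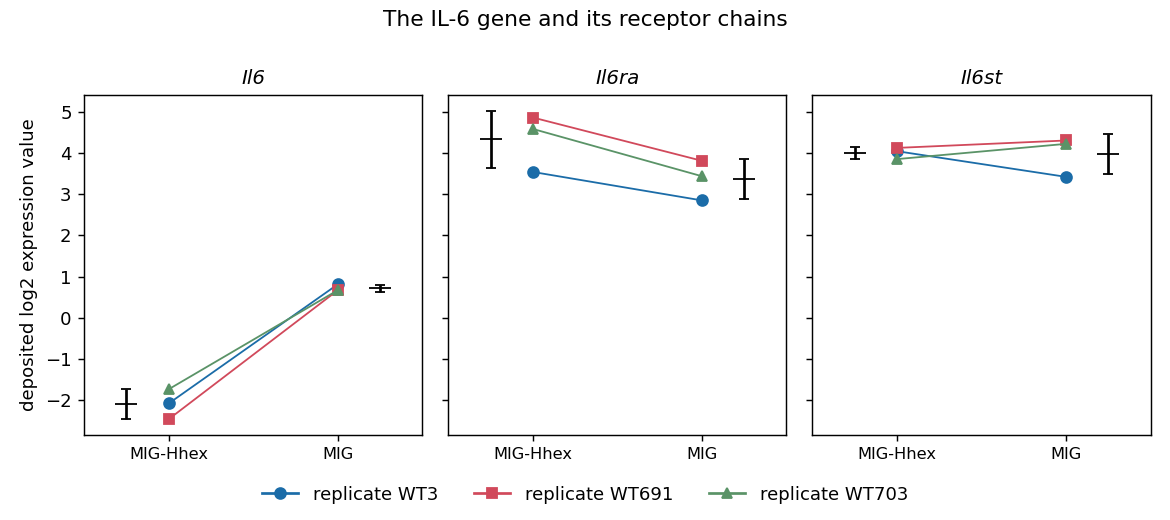
Deposited log2 values of Il6, Il6ra and Il6st by library, MIG-Hhex on the left and MIG on the right, with lines joining libraries of the same replicate and black bars for the mean and SD of 3. Il6 lay between −2.46 and −1.73 with MIG-Hhex and between 0.67 and 0.81 with MIG, Il6ra was higher with MIG-Hhex in each pair, and Il6st had no common direction.

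The receptors for stem cell factor and Flt3 ligand were the 2 whose pairs were all lower with MIG-Hhex. Kit, the receptor of stem cell factor and a marker used in the sort, had log2 values of 4.45, 4.44 and 4.77 with MIG-Hhex, against 4.62, 4.69 and 4.86 with MIG. The differences of −0.17, −0.25 and −0.09 were small and did not pass (95% interval −0.40 to 0.06, limma adjusted p = 0.265; with the replicate block 0.0735). Flt3, which marks lymphoid-primed and multipotent progenitors, stood at 2.60, 3.79 and 4.55 with MIG-Hhex, against 2.83, 4.54 and 4.99 with MIG. Its values ranged more widely across replicates than those of any other of the 10, with SDs of 0.98 with MIG-Hhex and 1.14 with MIG, and the lowest pair was that of WT3 on the separate flow cell. The fold change of −0.47 (SE 0.22) missed the threshold (limma adjusted p = 0.182), and with the replicate block it passed (SE 0.10, limma adjusted p = 0.0241).

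Csf1r, the M-CSF receptor of the monocyte and macrophage line, had log2 values of 5.29, 5.48 and 4.59 with MIG-Hhex, against 4.53, 4.37 and 3.55 with MIG. It was the 1 gene of the 10 whose groups did not overlap, a separation upwards that 10.2% of all genes showed. The 1.96-fold difference (log2 fold change 0.97, SE 0.28) narrowly missed the threshold with the flow cell term (limma adjusted p = 0.0609), and passed with the replicate block (SE 0.08, limma adjusted p = 0.00146). With the flow cell term it also passed without the MIG library of WT691 (limma adjusted p = 0.0491), without both libraries of WT691 (0.0095) and without both of WT703 (0.0245). Csf3r, the G-CSF receptor of neutrophils and their precursors, stood at 4.44, 5.09 and 4.81 with MIG-Hhex, against 4.11, 4.72 and 4.32 with MIG. The 3 pairs differed by 0.33, 0.36 and 0.49. At 1.31-fold (log2 fold change 0.39, SE 0.12) the difference was not past the threshold (limma adjusted p = 0.071), and with the block it was (limma adjusted p = 0.00702). It was also past it without the MIG library of WT691 (limma adjusted p = 0.0438) and without both libraries of WT691 (0.0404).

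**Figure D4:**
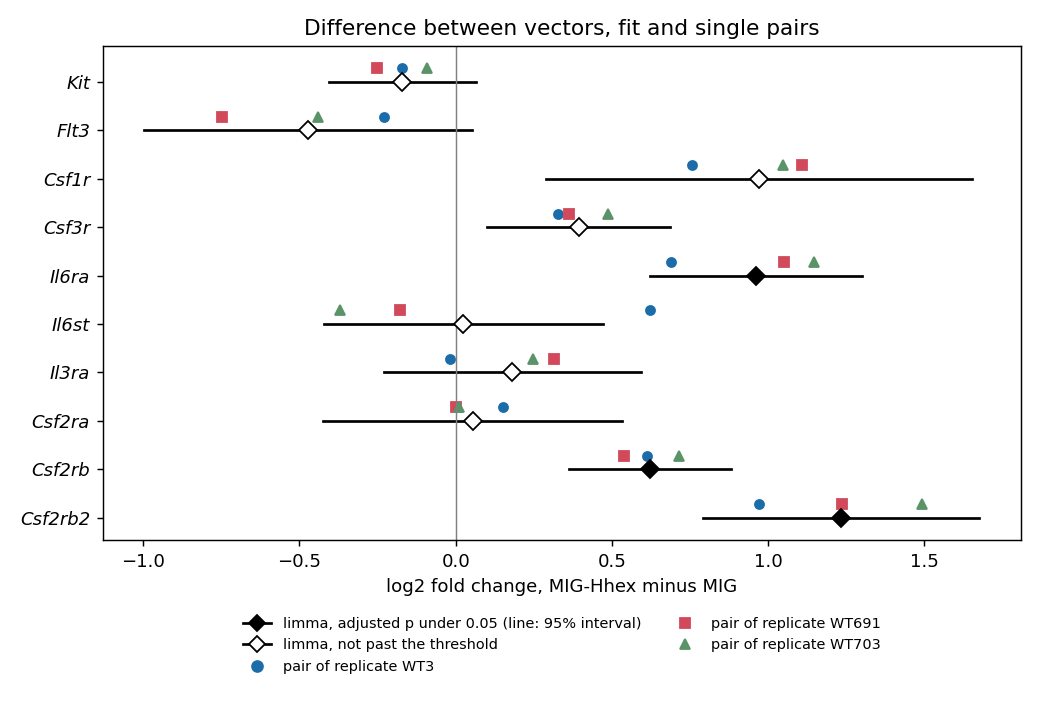
Log2 fold change of each receptor gene, MIG-Hhex minus MIG. Diamonds and lines give the limma estimate with its 95% interval, filled where the adjusted p was under 0.05, and coloured symbols give the 3 single pairs. Il6ra, Csf2rb and Csf2rb2 are filled, Kit and Flt3 lie left of 0 in all pairs, and the pairs of Il6st spread to both sides.

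By level, Csf2rb stood apart from the rest, at a mean log2 value of 7.23 ± 0.35 with MIG-Hhex and 6.61 ± 0.38 with MIG (SD, n = 3 each). Over the 6 libraries it exceeded 94.2% of the genes in the table, and the lowest of the receptors, Il3ra, 47.6%. In the MIG libraries Kit came next, 1.88 ± 0.36 below Csf2rb and lower in 3 of 3 libraries. From Kit at 4.73 to Il6st at 3.98 the steps between neighbours (Csf3r, Csf2rb2, Csf1r, Csf2ra and Flt3 in falling order) were each 0.34 or less and no neighbour was separated in all 3 libraries. Il6ra, at 3.36, lay below Il6st in 3 of 3 MIG libraries, by 0.62 ± 0.15. Its own neighbour Il3ra, at 3.32, was not separated from it. In the MIG-Hhex libraries the order was Csf2rb, Csf2rb2 (5.55), Csf1r (5.12), Csf3r (4.78), Kit (4.56), Il6ra (4.32), Csf2ra (4.19), Il6st (4.00), Flt3 (3.65) and Il3ra (3.50).

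Vector and replicate shared out the variation differently from gene to gene. Of the sum of squares over the 6 libraries, the vector took 63.3% for Csf2rb2, 58.6% for Csf1r, 52.2% for Csf2rb and 49.1% for Il6ra, where the median over all 12161 genes was 18.0%. For Csf2ra, Il3ra and Flt3 the replicate took 99.3%, 92.2% and 91.8%, against a median of 65.0%. For Csf2ra and Il3ra the libraries of WT3 were the highest and those of WT703 the lowest with both vectors, while for Flt3 WT703 was the highest and WT3 the lowest, and the replicate and the flow cell cannot be told apart for WT3. Il6st alone left most of its variation, 53.9%, to neither. The transcripts of Il3ra and Csf2ra had the highest GC content of the 10, at 65.9% and 61.5%, where the others lay between 47.4% and 54.2%, and the part of base composition in their spread was not tested.

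**Figure D5:**
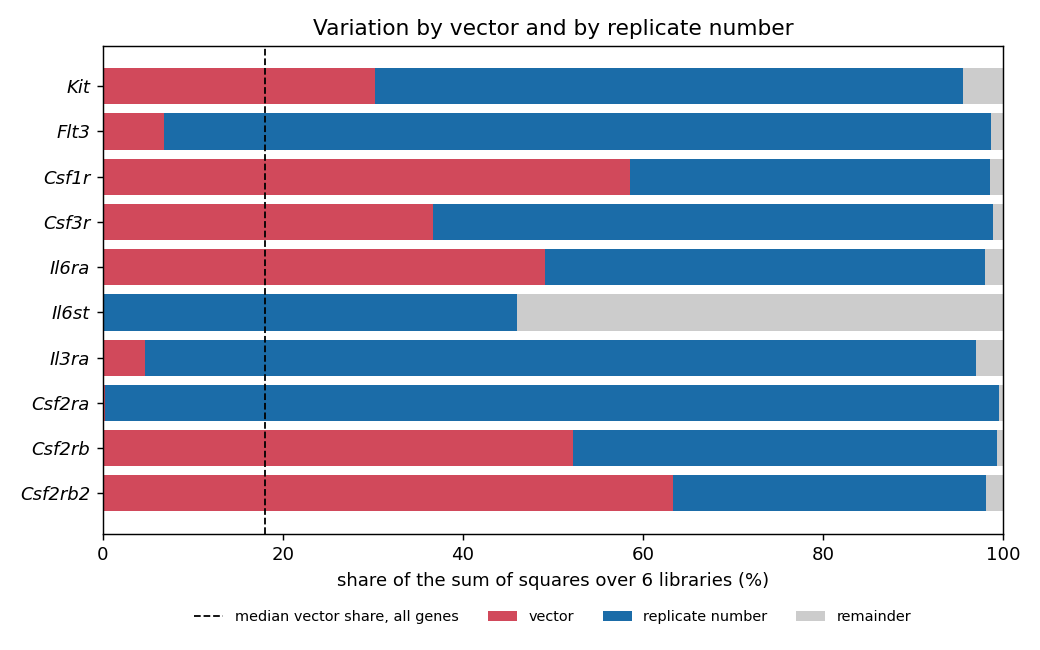
Share (%) of the sum of squares of the log2 values over 6 libraries that went with the vector, the replicate number and neither, for each receptor gene. The dashed line is the median vector share over all genes, 18.0%. Csf2rb2, Csf1r, Csf2rb and Il6ra exceed it most, while Csf2ra and Il6st lie near 0.

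Genes with the nearest pattern across the 6 libraries were found by the root mean square difference of centred log2 values. For Csf2rb they were Slc43a2 (0.05), Txnip (0.07) and Nbeal2 (0.08), for Csf2rb2 Fgr (0.13), Id2 (0.15) and Padi4 (0.15), and for Il6ra Cass4 (0.11), Id2 (0.13) and Ggt5 (0.13). Slc43a2 is an amino acid transporter, Fgr a SRC-family kinase of myeloid cells, Padi4 an arginine deiminase of neutrophils and Id2 a factor that blocks E proteins. The own root mean square deviations of Csf2rb, Csf2rb2 and Il6ra were 0.43, 0.77 and 0.69. Likeness was close but not rare, since 431 genes lay within 0.25 of Csf2rb, 30 within 0.25 of Csf2rb2 and 55 within 0.25 of Il6ra.

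The signalling genes downstream were mixed, and the shares below stand beside the 18.0% of all genes called in either direction. Among the 4 JAK kinases 1 rose, Tyk2, by 0.47 (limma adjusted p = 0.0194), and 0 fell, while Jak2, the kinase bound by Csf2rb, had a fold change of −0.36 that did not pass with the flow cell term (limma adjusted p = 0.129) and passed with the replicate block (0.0458). Of 7 STAT factors 2 rose and 2 fell. Stat4 fell by 0.94 and Stat5b, which acts after IL-3 and GM-CSF, by 0.22, whereas Stat3, which acts after IL-6 and G-CSF, rose by 0.21 and Stat6 by 0.30. Stat5a averaged 4.33 with MIG-Hhex and 4.42 with MIG (limma adjusted p = 0.274). Of 22 adaptors and kinases next to the receptors 6 rose and 3 fell, with a median of 0.09. The 4 with the smallest p were the kinases Syk (up by 0.69), Fes (up by 0.42) and Pik3cd (up by 0.35) and the phospholipase Plcg2 (up by 0.30). Of 17 genes that dampen receptor signals 4 rose and 0 fell, with a median of 0.20, and with the replicate block 5 were higher and 2 lower. The 4 were the docking protein Dok2 (1.21, SE 0.09, limma adjusted p = 0.00118), the SRC-like adaptor Sla2 (1.44), the adaptor Sh2b3 (0.45), which restrains JAK2, and the phosphatase Ptpn6 (0.35). Dok2 was at 5.38, 5.66 and 5.77 with MIG-Hhex, against 4.40, 4.39 and 4.38 with MIG, with no overlap.

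Of 8 genes for receptor shedding and trafficking 1 rose, Rhbdf2, a partner of the protease ADAM17, by 0.51 (limma adjusted p = 0.0105), and with the replicate block Sort1 passed as well (limma adjusted p = 0.0768 with the flow cell term and 0.00448 with the block). Adam10 and Adam17, the sheddases themselves, missed the threshold at fold changes of 0.07 and 0.06 (limma adjusted p of 0.5 and 0.63). Among 23 measured genes induced by STAT5, STAT3 or the MAP kinase branch, 7 rose and 2 fell, with a median of 0.22 (10 and 3 with the replicate block). The 4 with the smallest p were Spry2 and Cd69, which fell by 1.20 and 0.73, and Etv5 and Ccnd2, which rose by 0.56 and 0.35. The IL-3 feedback inhibitor Cish, picked after its value was seen, rose by 0.63 (limma adjusted p = 0.0218), and so did Socs1, by 0.66 (limma adjusted p = 0.044).

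Other receptors gave a background for the 10. Of 18 measured type I cytokine receptors outside the 10, 3 rose and 2 fell, with a median of 0.10 (3 and 4 with the replicate block). The 4 with the smallest p were Il12rb2 (0.68), Il21r (0.49) and Lifr (0.89), which rose, and Il13ra1 (−1.38), which fell. Il5ra, the IL-5 alpha chain that also pairs with Csf2rb, averaged −2.10 with MIG-Hhex and −2.99 with MIG, a low level, and did not pass (limma adjusted p = 0.403). Of 7 type II receptors Il10ra rose by 1.01 and Ifngr2 fell by 0.41. Of 11 receptors of the IL-1 and TNF families 4 rose and 1 fell, and among those with the smallest p Il1rl1 rose by 0.71, Il18rap by 0.49 and Il18r1 by 1.08, while Il1r1, the IL-1 receptor itself, fell by 0.71.

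Of 11 other receptor tyrosine kinases 4 rose and 1 fell. Met, the receptor of hepatocyte growth factor, fell by 3.18 (9.05-fold lower, limma adjusted p = 0.00212), and Axl, Pdgfrb and Igf1r rose by 1.99, 1.40 and 0.88. Axl averaged 1.28 with MIG-Hhex and −0.71 with MIG, so the size of its rise may depend on any offset. Pdgfrb is the tandem relative of Csf1r on chromosome 18, where it runs from 61045127 to 61085067 and Csf1r from 61105572 to 61131139, both on the plus strand and 20.5 kb apart. Its log2 values averaged 3.22 with MIG-Hhex and 1.82 with MIG (limma adjusted p = 0.00261), and the pairs differed by 1.23, 1.67 and 1.29, against 0.76, 1.11 and 1.05 for Csf1r.

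Of 24 measured transcription factors known to act on receptor genes in blood cells 8 rose and 1 fell, with a median of 0.21. Those with the smallest p rose: Cebpe by 1.67, Irf8 and Cebpa by 0.54 each and Runx1 by 0.75. Spi1, which encodes PU.1, averaged 7.51 with MIG-Hhex and 7.24 with MIG, and its fold change of 0.28 missed the threshold (limma adjusted p = 0.0532; with the replicate block 0.0197). Cebpa is known to act on Csf3r and Runx1 on Csf1r in mouse cells.

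Lists of markers of other cell types held genes called in either direction, and their part in the receptor changes was not tested. Of 15 measured neutrophil genes 7 rose and 2 fell. Those with the smallest p were Cxcr2, Cebpe, Ngp and Mmp9, at log2 fold changes of 2.03, 1.67, 2.08 and 2.97, while Mpo fell by 3.12, and the log2 of their summed linear level, given as a sum for each list, ran from 12.69 to 13.29 in MIG-Hhex libraries and from 12.91 to 13.31 in MIG libraries. Of 17 monocyte and macrophage genes 3 rose and 4 fell, with sums of 9.03 to 10.93 with MIG-Hhex and 9.05 to 10.69 with MIG, and with the replicate block 7 were higher and 5 lower. That list holds Csf1r itself, and those with the smallest p were Adgre1, which rose by 1.42, and Ccr2, Cd14 and F13a1, which fell by 2.04, 0.75 and 2.69. Of 15 listed dendritic cell genes 10 were measured, and Cd209a, Clec9a, Xcr1, Siglech and Irf4 were not analysed here. Of the 10, 7 rose and 0 fell, with sums of 7.88 to 8.17 with MIG-Hhex and 7.27 to 7.77 with MIG. Itgax, Irf8, Ciita and Cd74 rose by 3.04, 0.54, 3.10 and 2.37. In MIG libraries Itgax averaged −0.95 and Ciita −4.12, low levels where any offset may set the size, while Irf8 averaged 4.20 and Cd74 3.34. Flt3, which is also on that list, was the 1 gene of it called lower with the replicate block. Among 11 measured genes of mast cells and basophils, 2 were called higher and 4 lower, with sums of 7.81 to 8.45 with MIG-Hhex and 7.998 to 8.98 with MIG. Cpa3 and Mcpt8, proteases of those cells, fell by 2.19 and 1.12, Cd200r3 fell by 3.62 and Il1rl1 rose by 0.71. Cd200r3 averaged −3.90 with MIG-Hhex and −0.28 with MIG, so the size of its fall may depend on any offset. Of 9 eosinophil genes 2 rose, Alox15 by 4.80 and Siglecf by 1.81, and 0 fell, against 3 and 1 with the replicate block (sums of 5.99 to 6.94 with MIG-Hhex and 3.09 to 6.45 with MIG). Of 16 megakaryocyte and erythroid genes 5 rose and 3 fell, and those with the smallest p were Hba-a1 and Gata1, which rose by 3.77 and 0.71, and Pf4 and Tfrc, which fell by 0.94 and 0.29 (sums of 7.89 to 8.02 with MIG-Hhex and 7.89 to 8.20 with MIG).

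Of 16 listed lymphoid markers 3 were measured, with sums of 2.44 to 3.25 with MIG-Hhex and 2.43 to 3.74 with MIG. Dntt, the terminal transferase of early lymphoid cells, which often share Flt3, fell by 2.80 (limma adjusted p = 0.0125). It averaged −1.13 with MIG-Hhex and 1.67 with MIG, so the size of its fall may depend on any offset. Of the 15 stem cell genes 1 rose and 1 fell, Thy1 by 1.65 and Meis1 by 0.79 in that order (1 and 3 with the replicate block), with sums of 8.79 to 9.16 with MIG-Hhex and 8.99 to 9.16 with MIG. Of 7 measured stromal and endothelial genes, Pdgfrb rose, as above, and Col1a1, Col3a1, Cxcl12 and Cdh5 were not analysed here (sums of 5.12 to 5.54 with MIG-Hhex and 4.88 to 5.18 with MIG).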

How the data were processed

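The tools named, per the submitters' processing notes, are featureCounts, Subread, edgeR and limma, and the build is mm10. The authors deposited 1 log2 value per gene and library, and the sources used here give neither versions nor normalization. With gene length added back, the SD across the 11710 genes matched to GENCODE M21 was 2.51 to 2.53 in all 6 libraries, against 2.55 to 2.67 as deposited. Read counts were not recovered.

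The deposited log2 values were fitted with limma 3.58.1 in R 4.3.3 with terms for flow cell and vector, eBayes with a mean-variance trend, two-sided tests and Benjamini-Hochberg adjustment over all 12161 genes. No pseudocount or filter was used, so all 10 receptor genes were tested. Nothing in the labels says that replicates of a name share a mouse. Deviations from the group means correlated at 0.742, 0.585 and 0.656 between libraries named WT3, WT691 and WT703. The flow cell was not removed first, and WT3 has a flow cell to itself. A flow cell shift would therefore give positive correlations too, and they cannot show that libraries of a name are paired. The pairing rests on the shared name alone. Its block is given where it changes the call of a named gene or moves a list's count by over 1.5 times. The labels call the replicates biological. For 6 receptor pairs, log2 differences were compared by exact permutation.

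The receptor genes and the lists were chosen with earlier results of these data known. For each of the called receptors the text names the 3 genes of nearest pattern, and of each list all genes past the threshold where there were 4 or fewer and otherwise the 4 with the smallest p. Some marker and low-level examples lie outside that rule and were chosen after their values were seen. They are Ly6a, Elane, Ctsg, Jak2, Stat5a, Adam10, Adam17, Il5ra, Spi1, Kitl, Flt3l, Csf1, Sort1, Cish, Socs1 and Mpo. The alternatives were another covariate, 1 flow cell, left-out libraries, a filter, quantile normalization, no trend, an offset of 1 and, chosen after seeing the data, removal of a GC trend.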

Additional observations from a re-analysis of the deposited data

Results flagged for a closer look

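The estimates for Il6st and Il3ra had opposite signs in the 2 flow cells, and neither difference passed. For Il6st the pair of WT3 on flow cell C3RJFACXX differed by 0.62 and the pairs of WT691 and WT703 on flow cell C5LWPANXX by −0.18 and −0.37. The difference between the flow cells was −0.90 on the log2 scale (limma interaction term, unadjusted p = 0.00598, adjusted p = 0.928). For Il3ra the pairs differed by −0.02, 0.32 and 0.25, a difference between flow cells of 0.30 (limma interaction term, unadjusted p = 0.47, adjusted p = 0.988). Over all 12161 genes the interaction called 0, and 600 had an unadjusted p under 0.05. With a single pair on flow cell C3RJFACXX, the flow cell and the replicate WT3 cannot be told apart.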

How the results depend on the processing

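Csf2rb2 and Il6ra kept their call in 16 of 17 alternatives and Csf2rb in 11, where 4 of the 17 share the estimate of flow cell C5LWPANXX alone. Dropping the flow cell term left 119 genes called higher, 98 called lower and 0 receptors called. With the replicate block, which pairs the libraries by name, 5 receptors were higher and 1 lower. It changed the call of Csf1r, Csf3r and Flt3 and of no other receptor. Flow cell C5LWPANXX alone gave 698 genes higher and 519 lower, and a fit with no mean-variance trend 638 lower. Leaving out a library or replicate gave 355 to 835 genes higher, 270 to 634 lower and 2 to 5 receptors higher. Of the receptors whose sign turned, none passed in any of the 17 alternatives. Il6st was at −0.27 within flow cell C5LWPANXX and from −0.27 to 0.22 over the left-out runs, Csf2ra was at −0.17 with the GC trend removed and from −0.10 to 0.24 over the left-out runs, and Il3ra was at −0.056 with the GC trend removed. The cause was not tested. Depth is unknown, so no limit from counting can be given.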
